A study of Caenorhabditis elegans with 6 samples.

Results

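Glutathione S-transferases of the nematode *Caenorhabditis elegans*, other than *gst-4*, were compared between animals given JM03 and control animals. Members were the rows of the deposited table whose gene name begins with gst, gstk or gsto followed by a number, with *gst-4* left out. This gave 48 genes of the 46778 in the table, namely 43 named gst, 3 named gsto (the omega class) and 2 named gstk (the kappa class), and all 48 were annotated as protein coding. The JM03 group had 3 libraries of total RNA from animals treated with JM03, named in the title as a derivative of the scabies drug crotamiton. The Ctrl group had 3 libraries from animals labelled control. The sources used here do not give strain, stage, dose, vehicle or how long the animals were exposed.

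Glutathione S-transferases join the tripeptide glutathione to reactive and foreign molecules, which makes these easier to export. Some bind such molecules without altering them, and others work as isomerases or reductases. In *C. elegans* the family is large, many members lie side by side in the genome, and many are expressed in the intestine and epidermis, where the transcription factor SKN-1 induces several of them under oxidative stress. *gst-4*, the member most used as a reporter of that response, stands outside the 48 genes.

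Values are TPM, a length-scaled share of all transcripts that can be compared between genes but carries no read depth, so depth is unknown for every value. Nothing in the labels says that replicates came from separate cultures, and p-values therefore measure a spread between libraries that may be technical. Ctrl replicate 3 stood apart from the other libraries, with Spearman correlations across tested genes of 0.784 to 0.866 with them, against 0.901 to 0.978 among the other 5. It had 16560 genes above 0 TPM, where the others had 18049 to 18208, and longer transcripts were lower in it (Spearman correlation of -0.547 between transcript length and the library's departure from each gene's median, where the other libraries had -0.00807 to 0.154). Members of the family were short, with longest annotated transcripts of 594 to 1154 nt (median 747), against a median of 1267 nt over all tested genes with a known length. The main family results are therefore given with and without Ctrl replicate 3.

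The family was dominated by a pair of genes. *gst-1*, the pi-class enzyme, and *gst-7* together held 52.1%, 50.8% and 53.5% of the summed TPM of the family in the JM03 libraries, and 58.1%, 64.0% and 50.5% in the Ctrl libraries. These 2 members averaged over 100 TPM, another 10 averaged 10 to 100 TPM, 22 averaged 1 to 10 TPM and 14 less than 1 TPM. The 48 genes summed to 1017 ± 50.5 TPM in JM03 and 697 ± 108 TPM in Ctrl (mean ± SD, n = 3 each), and to 707 TPM in Ctrl without replicate 3. Without *gst-1*, *gst-5* and *gst-7*, the other 45 summed to 381 ± 24.1 TPM in JM03 and 276 ± 63.9 TPM in Ctrl, and to 260 TPM in Ctrl without replicate 3. In these bulk samples, fewer cells of a type and less RNA per cell cannot be told apart.

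**Figure D1:**
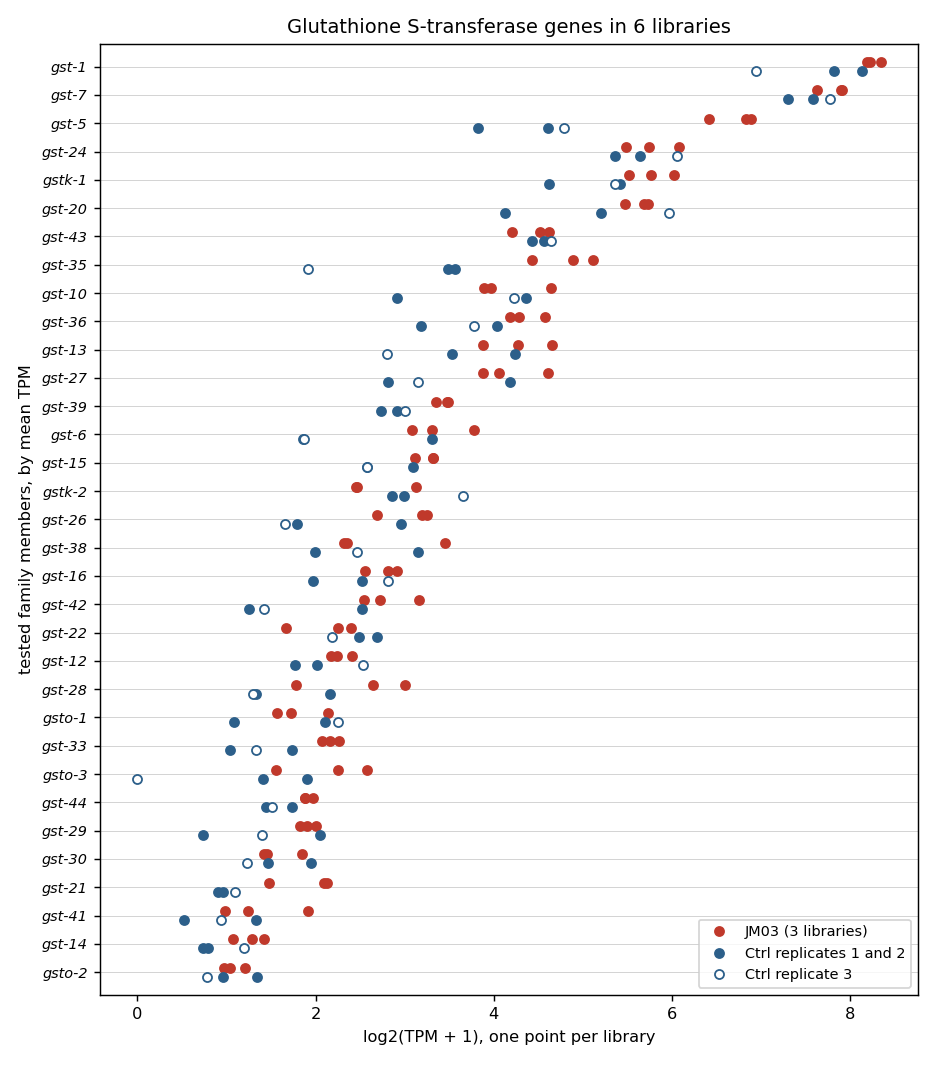
log2(TPM + 1) of the 33 tested members in each library, ordered down the page by mean TPM, with JM03 in red above Ctrl in blue and Ctrl replicate 3 as an open point. *gst-1* and *gst-7* are the most abundant members, and *gst-5* shows the widest gap between its JM03 and Ctrl points.

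The comparison of JM03 with Ctrl asked which genes differed in treated animals. A gene was tested where at least 3 libraries had at least 1 TPM, which 33 of the 48 members met, 27 of them in all 6 libraries and none through the JM03 libraries alone. This filter was taken on the 6 libraries also where a library was left out. Without Ctrl replicate 3, *gst-14* and *gst-21* were at 1 TPM or more in JM03 libraries alone. Their p and separated groups in that reading were therefore favoured by the filter and are not support. No member passed the test over all genes (limma, Benjamini-Hochberg adjusted p below 0.05), a threshold that 0.132% of the 12912 tested genes passed in either direction, with 6 libraries as without Ctrl replicate 3. At an unadjusted limma p below 0.05 there were 5 members, *gst-5*, *gst-35*, *gst-21*, *gst-33* and *gst-42*, and each had a positive log2 fold change. Over all tested genes 4.21% reached that level with a positive log2 fold change. Without Ctrl replicates 1, 2 and 3 in turn the count of members was 13, 3 and 10, all positive. Without JM03 replicates 1, 2 and 3 it was 3, 5 and 3, also all positive. With Ctrl replicate 3 left out, 8.41% of all tested genes reached that level with a positive log2 fold change. For the other libraries left out that share was not computed, so those counts cannot be set against all genes. Without Ctrl replicate 1 the median log2 fold change of all tested genes was itself 0.51, against 0.35 with the 6 libraries.

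Positive log2 fold changes were common in the family and in the table as a whole. They were found in 29 of the 33 tested members (87.9%), against 72.7% of all tested genes, and in 28 members without Ctrl replicate 3, against 56.5% of all tested genes. The median log2 fold change was 0.52 in the members and 0.35 in all tested genes, a difference of 0.17. Without Ctrl replicate 3 these medians were 0.50 and 0.046, a difference of 0.45. Leaving out Ctrl replicate 2 instead gave 0.29 and 0.45, so the members then lay below the other genes by 0.15. The sign of the family's difference from the other genes thus turned when Ctrl replicate 2 was left out and Ctrl replicate 3 kept. In Ctrl replicate 3 the median departure from each gene's median was -0.75 for all tested genes and -0.22 for the members. That fit therefore cannot assign the sign to Ctrl replicate 2 alone. Without Ctrl replicate 2, 25 members had a positive log2 fold change. Rescaling lowered the number of positive members along with that of all genes, to 23 members (69.7%) beside 57.2% of all tested genes with quantile normalization, and to 26 members (78.8%) beside 52.9% with each library's trend on transcript length removed.

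**Figure D2:**
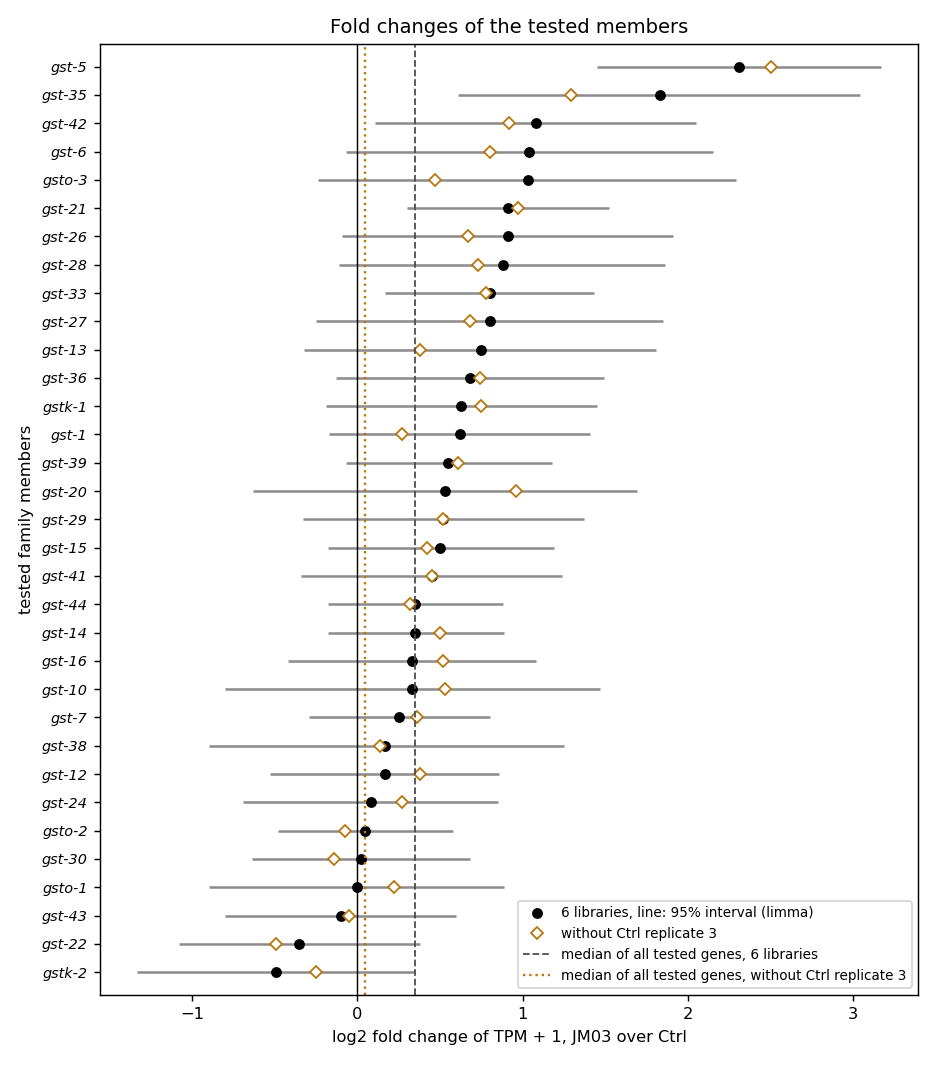
log2 fold change of TPM + 1, JM03 over Ctrl, for the 33 tested members with the 6 libraries (black points, with limma 95% intervals) and without Ctrl replicate 3 (open diamonds). Vertical lines mark 0 and the median of all tested genes in each fit, which is 0.35 with the 6 libraries and 0.046 without Ctrl replicate 3.

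In 11 tested members every JM03 value lay above every Ctrl value (33.3%), which was so for 21.9% of all tested genes. They were *gst-1*, *gst-5*, *gst-15*, *gst-21*, *gst-33*, *gst-35*, *gst-36*, *gst-39*, *gst-42*, *gst-44* and *gstk-1*. No tested member had every JM03 value below every Ctrl value, an order found in 9.41% of all tested genes. Against Ctrl replicates 1 and 2 alone, 16 members had all JM03 values on top (48.5%, beside 23.7% of all tested genes). The added members were *gst-7*, *gst-12*, *gst-14*, *gst-16* and *gst-20*. The 16 include *gst-14* and *gst-21*, which without Ctrl replicate 3 met the filter through the JM03 libraries alone. *gst-22* was then the single member with all JM03 values at the bottom, beside 18.5% of all tested genes.

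Among the members that conjugate hydroxynonenal, a toxic product of lipid peroxidation, *gst-5* had the largest log2 fold change of the family. *gst-5* (WBGene00001753, II:10950352 to 10951603 in WBcel235, plus strand) was at 117.65, 112.79 and 84.87 TPM in JM03 and at 23.4, 13.13 and 26.68 TPM in Ctrl. The groups were well separated, since the lowest JM03 value was 3.18 times the highest Ctrl value. Mean TPM was 105 ± 17.7 in JM03 and 21.1 ± 7.07 in Ctrl (SD, n = 3 each), a ratio of 4.99. Its log2 fold change of TPM + 1 was 2.31 ± 0.36 (SE, 95% interval 1.45 to 3.17), rank 29 of the 12912 tested genes by size and rank 33 by p. It was not called over all genes (limma adjusted p = 0.159), nor without Ctrl replicate 3, where the log2 fold change was 2.50 (limma adjusted p = 0.0958). Its annotated span shares 12 nt with *nos-1* on the opposite strand, and the sources used here do not say if the counting used strand.

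The other members with activity toward hydroxynonenal had overlapping groups. *gst-6* (WBGene00001754, II:4879891 to 4881105) was at 8.9, 7.47 and 12.69 TPM in JM03 and at 8.9, 2.63 and 2.66 TPM in Ctrl, where replicate 1 lay within the JM03 range and the other 2 far below it. Its log2 fold change was 1.04 ± 0.47 (SE, limma adjusted p = 0.445). *gst-10* (WBGene00001758, V:2561690 to 2564645), also a pi-class gene, was at 13.9, 14.72 and 24.03 TPM in JM03 and at 19.66, 6.53 and 17.8 TPM in Ctrl, so only Ctrl replicate 2 fell below the JM03 values. *gst-24* (WBGene00001772, II:13610443 to 13611366) was at 43.75, 52.53 and 66.99 TPM in JM03 and at 48.85, 40.19 and 65.84 TPM in Ctrl. The *gst-24* groups covered nearly the same range, while those of *gst-10* overlapped in part. Their log2 fold changes were 0.33 and 0.082 (limma adjusted p = 0.654 and 0.873), both negative with quantile normalization and without Ctrl replicate 2 (-0.13 and -0.08). *gst-8* stayed below the filter, at 0 to 0.34 TPM in JM03 and 0.23 to 0.46 TPM in Ctrl.

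The most abundant members showed small differences. *gst-1* (WBGene00001749, III:9059331 to 9060181, plus strand), whose product protects dopamine neurons from manganese in this animal, was at 298.43, 291.34 and 326.43 TPM in JM03 and at 280.64, 226.38 and 122.42 TPM in Ctrl. The groups did not overlap, but the lowest JM03 value was only 1.04 times that of Ctrl replicate 1, and Ctrl replicate 3 was far below the other controls. Its log2 fold change was 0.62 ± 0.33 (SE, limma adjusted p = 0.478) and it was 0.27 ± 0.12 without Ctrl replicate 3. *gst-7* (WBGene00001755, II:4882062 to 4883358) was at 239.84, 196.78 and 238.42 TPM in JM03 and at 191.92, 157.53 and 219.15 TPM in Ctrl. Here Ctrl replicate 3 lay within the JM03 range, and the log2 fold change was 0.25 ± 0.23 (SE, limma adjusted p = 0.522).

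Of the next most abundant genes, *gst-20* (WBGene00001768, II:13608154 to 13609824) was at 50.49, 43.56 and 52.06 TPM in JM03 and at 35.96, 16.54 and 61.53 TPM in Ctrl. Ctrl replicate 3 was above all JM03 libraries for this gene while the other 2 controls were below them. The log2 fold change was 0.53 with the 6 libraries and 0.96 without Ctrl replicate 3 (limma adjusted p = 0.525 and 0.233), and without Ctrl replicate 2 it was 0.044. *gst-43* (WBGene00001791, I:2901325 to 2903006) was at 21.96, 23.55 and 17.52 TPM in JM03 and at 20.52, 22.78 and 24.02 TPM in Ctrl, an overlap in which the log2 fold change was -0.098 and a 95% interval of -0.80 to 0.60.

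A role in amino acid metabolism is described for *gst-42*. *gst-42* (WBGene00001790, X:11726264 to 11727936, minus strand), described in the table as a probable maleylacetoacetate isomerase, an enzyme of tyrosine breakdown, was at 5.6, 4.84 and 7.96 TPM in JM03 and at 4.76, 1.38 and 1.68 TPM in Ctrl. All JM03 values were above the controls, although Ctrl replicate 1 nearly reached the lowest of them. Its log2 fold change was 1.08 ± 0.41 (SE, 95% interval 0.11 to 2.05, limma unadjusted p = 0.034, adjusted p = 0.378). Without Ctrl replicate 3 it was 0.92 (limma unadjusted p = 0.0806).

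The kappa-class genes went opposite ways in their means. *gstk-1* (WBGene00014251, II:9656705 to 9657719), whose class is found in mitochondria and peroxisomes in mammals, was at 63.96, 53.4 and 44.96 TPM in JM03 and at 41.78, 23.71 and 40.24 TPM in Ctrl. Its groups did not overlap, and the log2 fold change was 0.63 ± 0.35 (SE, limma adjusted p = 0.482). *gstk-2* (WBGene00017054, IV:7240445 to 7242270) was at 4.49, 7.76 and 4.52 TPM in JM03 and at 6.27, 6.99 and 11.59 TPM in Ctrl. These groups overlapped, and its log2 fold change of -0.49 ± 0.35 (SE, limma adjusted p = 0.492) was the lowest of the family. The difference between the kappa genes was not tested.

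The omega class, whose mammalian members reduce dehydroascorbate, was low throughout. *gsto-1* (WBGene00016204, III:7945542 to 7947018) was at 1.96, 3.42 and 2.3 TPM in JM03 and at 3.29, 1.12 and 3.78 TPM in Ctrl, and *gsto-2* (WBGene00015337) ran from 0.96 to 1.31 TPM in JM03 and from 0.72 to 1.53 TPM in Ctrl. Both had groups that overlapped widely, with log2 fold changes of -0.003 and 0.048, the second of them negative with quantile normalization. *gsto-3* (WBGene00019636, III:378137 to 381298) was at 3.75, 1.95 and 4.98 TPM in JM03 and at 2.75 and 1.65 TPM in Ctrl replicates 1 and 2, and was listed at 0 in Ctrl replicate 3. Without that library its log2 fold change was 0.47 ± 0.36, against 1.03 ± 0.53 with it (SE, limma adjusted p = 0.453 and 0.474).

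**Figure D3:**
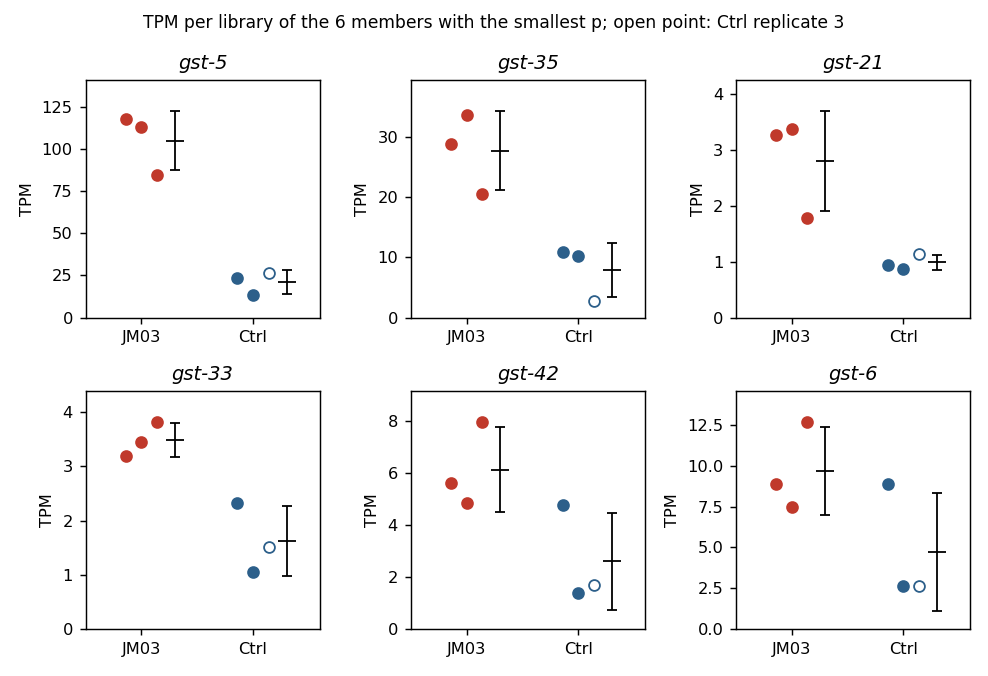
TPM in each library of the 6 members with the smallest unadjusted p, with JM03 in red to the left of Ctrl in blue, Ctrl replicate 3 as an open point, and bars for mean ± SD (n = 3 each). The groups are apart in *gst-5*, *gst-35*, *gst-21*, *gst-33* and *gst-42*, while in *gst-6* Ctrl replicate 1, at 8.9 TPM, lies among the JM03 points.

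Several members without a role named in the table had separated groups. *gst-35* (WBGene00001783, II:15183807 to 15185389, minus strand) was at 28.77, 33.66 and 20.57 TPM in JM03 and at 10.87, 10.2 and 2.76 TPM in Ctrl. The lowest JM03 value was 1.89 times the highest Ctrl value, and Ctrl replicate 3 was the lowest of all. Mean TPM was 27.7 ± 6.61 in JM03 and 7.94 ± 4.50 in Ctrl (SD, n = 3 each). The log2 fold change was 1.83 ± 0.51 with the 6 libraries and 1.29 ± 0.22 without Ctrl replicate 3 (SE, limma adjusted p = 0.306 and 0.233).

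*gst-21* (WBGene00001769, V:1730684 to 1732018) was at 3.27, 3.38 and 1.78 TPM in JM03 and at 0.95, 0.87 and 1.14 TPM in Ctrl. JM03 replicate 3 was lower than the other treated libraries but above all controls. *gst-33* (WBGene00001781, V:3467451 to 3468562) was at 3.2, 3.46 and 3.82 TPM in JM03 and at 2.33, 1.05 and 1.52 TPM in Ctrl. The log2 fold changes of *gst-21* and *gst-33* were 0.91 ± 0.26 and 0.80 ± 0.27 (SE, limma adjusted p = 0.306 and 0.328), on a scale of TPM + 1 that understates the change of low genes. *gst-36* (WBGene00001784, X:9861646 to 9862960) was at 22.95, 17.16 and 18.53 TPM in JM03 and at 15.45, 8.12 and 12.7 TPM in Ctrl, also without overlap (log2 fold change 0.68, limma adjusted p = 0.473).

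At the lower end, *gst-22* (WBGene00001770, V:16231032 to 16232282) was at 4.26, 2.18 and 3.76 TPM in JM03 and at 4.63, 5.45 and 3.56 TPM in Ctrl. The groups overlapped through Ctrl replicate 3 alone, and the log2 fold change was -0.35 ± 0.31 (SE, limma adjusted p = 0.513). *gst-38* (WBGene00001786) ran from 4.01 to 9.98 TPM in JM03 and from 2.99 to 7.86 TPM in Ctrl, with a log2 fold change of 0.17 that was -0.057 with quantile normalization. The remaining tested members not described one by one, *gst-12*, *gst-13*, *gst-14*, *gst-15*, *gst-16*, *gst-27*, *gst-29*, *gst-30*, *gst-41* and *gst-44*, had log2 fold changes of 0.023 to 0.80, of which those of *gst-12* and *gst-30* were negative with quantile normalization.

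Position in the genome grouped 24 of the members, since members less than 10000 nt from the next were taken as one array. There were 4 arrays, and 26 of the 48 genes lay on chromosome II. The largest arrays each held 9 genes, all on the minus strand. One ran from *gst-20* to *gst-18* (II:13608154 to 13630887) and the other from *gst-26* to *gst-35* (II:15163817 to 15185389), and 6 genes of each were tested. In the *gst-20* array the median log2 fold change was 0.34, with a range of 0.082 to 0.53, and in the *gst-26* array it was 0.84, with a range of 0.52 to 1.83. Without Ctrl replicate 3 the medians were 0.46 and 0.67, and the difference between the arrays was not tested.

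**Figure D4:**
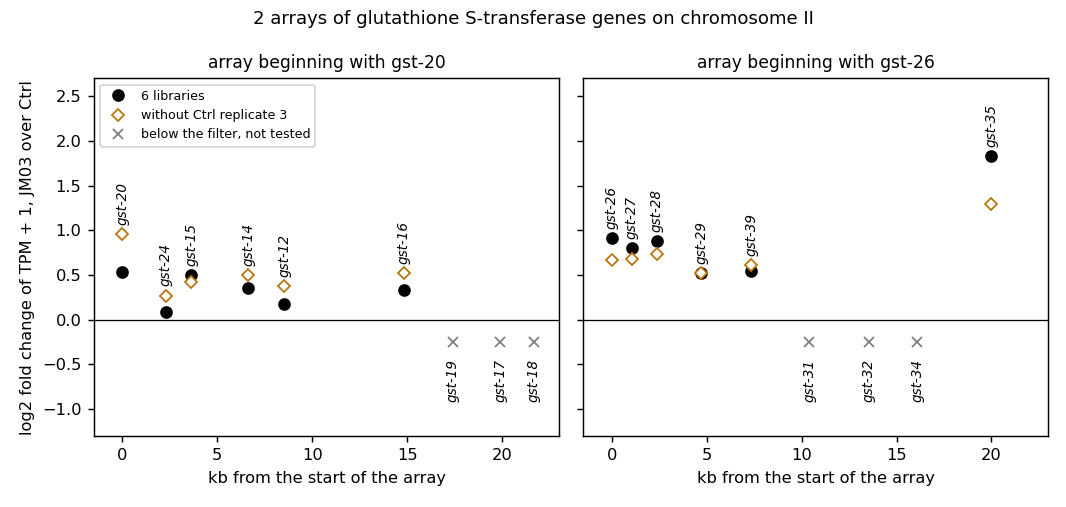
log2 fold change of TPM + 1, JM03 over Ctrl, against distance in kb from the start of each of the 9-gene arrays on chromosome II, with the 6 libraries (black) and without Ctrl replicate 3 (open diamonds). Crosses mark genes below the filter, placed below 0 for display only. *gst-35*, at 1.83, stands at the far end of the *gst-26* array.

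The summed TPM of the *gst-26* array was 73.18, 68.77 and 73.28 in JM03 and 48.77, 27.96 and 23.54 in Ctrl, so all treated libraries exceeded all controls. The sum of the *gst-20* array was 113.1, 117.1 and 139.6 TPM in JM03 and 101, 68.02 and 144.8 TPM in Ctrl, with Ctrl replicate 3 the highest. Within the *gst-26* array, *gst-39* (WBGene00001787, II:15171163 to 15171916) was at 10.2, 9.2 and 10.15 TPM in JM03 and at 6.53, 5.68 and 7.02 TPM in Ctrl, both groups tight and apart (log2 fold change 0.55 ± 0.26 SE, limma adjusted p = 0.464). *gst-26* and *gst-28*, at the other end of the array, were different in that Ctrl replicate 1 lay among the JM03 values. *gst-26* (WBGene00001774) was at 8.15, 5.45 and 8.5 TPM in JM03 and at 6.81, 2.46 and 2.15 TPM in Ctrl, and *gst-28* (WBGene00001776) was at 5.24, 2.43 and 7.01 TPM in JM03 and at 3.46, 1.52 and 1.46 TPM in Ctrl. Their log2 fold changes were 0.91 ± 0.42 and 0.88 ± 0.42 (SE, limma adjusted p = 0.46 and 0.464). Neighbouring copies may share reads, and the sources used here do not say how reads matching several copies were assigned.

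The 2 smaller arrays held *gst-6*, *gst-7*, *gst-8* and *gst-9* on chromosome II and *gst-3* and *gst-2* on chromosome IV. The 14 tested genes within arrays had a median log2 fold change of 0.52 and all were positive. The 19 tested genes outside arrays had a median of 0.45, and 15 were positive. Of all tested genes, 72.7% were positive. Without Ctrl replicate 3 the medians were 0.57 and 0.38, with 14 positive genes within arrays and 14 outside them, beside 56.5% of all tested genes. The difference between genes within and outside arrays was not tested, and neighbouring copies may share reads.

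Of the 15 members below the filter, 10 stayed under 1 TPM in every library and *gst-18* was listed at 0 in all 6. *gst-37* (WBGene00001785, V:1921621 to 1922381) was at 1.34, 0.76 and 1.03 TPM in JM03 and at 0.09, 0.34 and 0 TPM in Ctrl. *gst-31* (WBGene00001779, II:15174229 to 15174965) was at 1.05, 1.07 and 0.8 TPM in JM03 and at 0.42, 0.49 and 0.26 TPM in Ctrl. The groups of both genes were apart but near the floor of detection, and neither was tested. *gst-23*, at 0.40 to 0.65 TPM in JM03 and 0 to 0.23 TPM in Ctrl, was the third untested member whose JM03 values all lay above the controls. The share of all genes below the filter with separated groups, in either direction, was not computed. The count is therefore not a result about the members. *gst-3* was at 0.56 to 1.17 TPM in JM03 and 0.77 to 0.95 TPM in Ctrl, and *gst-32* at 0.27 to 1 TPM in JM03 and 0.13 to 0.67 TPM in Ctrl, both with overlap. *gst-2*, *gst-11*, *gst-17*, *gst-19*, *gst-34* and *gst-40* were at 0 to 0.93 TPM throughout.

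Some low values lay where another gene is annotated on the opposite strand, as was the case for 2 members that overlap sperm genes. *gst-9* (WBGene00001757, II:4891585 to 4893573) shares 384 nt with the major sperm protein gene *msp-33*. *gst-9* was at 0.95, 0.53 and 0.9 TPM in JM03 and at 1.33, 0.76 and 1.56 TPM in Ctrl, and *msp-33* at 62.76, 85.1 and 47.44 TPM in JM03 and at 121.06, 203.05 and 314.51 TPM in Ctrl. The JM03 values of *msp-33* were all below the controls, and those of *gst-9* overlapped them. *gst-25* (WBGene00001773, I:1451081 to 1453070) lies wholly within *spe-15*, a myosin gene needed to make sperm. Among all 48 members *gst-25* alone had every JM03 value below every Ctrl value, at 0.23, 0.09 and 0.09 TPM in JM03 and 0.58, 0.49 and 0.52 TPM in Ctrl, and it was singled out after its values were seen. *spe-15* was at 16.32, 19.73 and 10.53 TPM in JM03 and at 23.74, 37.06 and 9.88 TPM in Ctrl. The part of the opposite strand in these values was not tested.

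The controls differed among themselves in the level of the family. Ctrl replicate 2 was the lowest library for 20 of the 33 tested members (60.6%), against 9.17% of all tested genes. Ctrl replicate 3 was lowest for 9 members (27.3%), against 64.7% of all tested genes. The members' median departure from the gene-wise median of the 6 libraries, on the log2(TPM + 1) scale, was 0.11, 0.071 and 0.20 in the JM03 libraries and -0.051, -0.53 and -0.22 in the Ctrl libraries. By this measure Ctrl replicate 1 was closer to the JM03 libraries than to Ctrl replicate 2. For 8 members, *gst-6*, *gst-13*, *gst-26*, *gst-27*, *gst-28*, *gst-29*, *gst-41* and *gsto-3*, Ctrl replicates 2 and 3 lay below all JM03 values and Ctrl replicate 1 did not, a pattern of 24.2% of tested members and 16.2% of all tested genes.

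**Figure D5:**
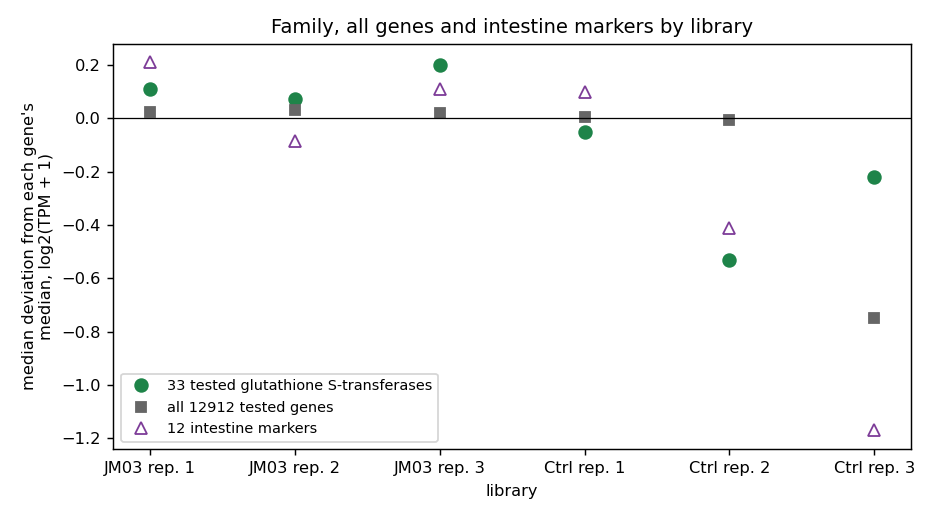
Median departure of log2(TPM + 1) from the gene-wise median of the 6 libraries, by library with JM03 to the left of Ctrl, for the 33 tested members (circles), all 12912 tested genes (squares) and 12 intestine markers (triangles). The members are lowest in Ctrl replicate 2 at -0.53, while all genes and the intestine markers are lowest in Ctrl replicate 3 at -0.75 and -1.17.

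Markers of tissues moved along with these libraries, and their part in the family's values was not tested. The 12 intestine markers were all detected and summed to 1788 to 2582 TPM in JM03 and 1043 to 2111 TPM in Ctrl, with 2 of 12 having all JM03 values above the controls (21.9% of all tested genes) and a median log2 fold change 0.32 above that of all genes. Their median deviations were 0.21, -0.084 and 0.11 in JM03 and 0.10, -0.41 and -1.17 in Ctrl, so Ctrl replicate 2 was low here too. That was not particular to the intestine. In Ctrl replicate 2 the median deviation was -0.60 for epidermis, -0.84 for body wall muscle and -0.38 for oocyte markers, and 1.04 for sperm markers. The 8 epidermis markers summed to 98.26 to 201.9 TPM in JM03 and 31.46 to 104 TPM in Ctrl, with *bli-1* at 0 in at least one library, 2 of 8 with all JM03 values on top and a median 0.92 above that of all genes over the 4 tested. The 8 body wall muscle markers summed to 537.7 to 1031 TPM in JM03 and 208.6 to 649.5 TPM in Ctrl, and although none had separated groups their median was 0.62 above that of all genes. The 8 sperm markers ran the other way, at 315 to 560.7 TPM in JM03 and 851.1 to 2013 TPM in Ctrl. For 6 of these 8 every JM03 value lay below every Ctrl value (9.41% of all tested genes), and over the 7 tested, all with a negative log2 fold change, the median was -1.92 relative to all genes. The 8 oocyte markers summed to 5713 to 6725 TPM in JM03 and 2982 to 5414 TPM in Ctrl, with all JM03 values on top in 6 of 8 and a median 0.37 above that of all genes. Without Ctrl replicate 3 the relative medians were 0.25 for intestine, 0.65 for epidermis, 0.60 for muscle, -1.35 for sperm and 0.34 for oocyte markers. None of the 39 tested markers was called over all genes (limma). An unadjusted p below 0.05 was reached by 6 sperm markers, 1 intestine marker and 1 oocyte marker. The intestine and oocyte markers were higher in JM03, a direction in which 4.21% of all tested genes reached that level. The sperm markers were lower, and the share of all tested genes in that direction was not computed.

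Other genes of glutathione metabolism had a median log2 fold change close to that of all genes. The list of 27 held the enzymes that make and recycle glutathione, glutathione peroxidases, glutaredoxins, the mrp pumps that export conjugates, and *skn-1* with its repressor *wdr-23*. All 27 were tested and 19 had a positive log2 fold change, beside 72.7% of all tested genes. None was called in either direction (limma). An unadjusted limma p below 0.05 was reached by 2, both positive, beside 4.21% of all tested genes in that direction. The median log2 fold change of the 27 was 0.41, or 0.058 above that of all genes, and 0.063 above it without Ctrl replicate 3. *gpx-6* and *gpx-5*, both glutathione peroxidases, had the smallest p. *gpx-6* met the filter through the JM03 libraries alone, so its p and its separated groups were favoured by the filter and are not support. *gpx-6* was at 1.08, 2.33 and 2.48 TPM in JM03 and at 0.86, 0.78 and 0 TPM in Ctrl, and *gpx-5* at 21.97, 24 and 24.52 TPM in JM03 and at 19.97, 10.2 and 7.67 TPM in Ctrl. Both had separated groups and a log2 fold change of 0.95 (limma adjusted p = 0.353 and 0.422). With the array quality weights described next, *gpx-5* was called (limma adjusted p = 0.0361), the only 1 of the 27. In that fit 17.1% of all tested genes were called, and 6.62% were called higher in JM03. The excluded *gst-4* was at 14.65, 10.7 and 17.55 TPM in JM03 and at 12.12, 4.98 and 4.25 TPM in Ctrl, again with Ctrl replicate 1 within the JM03 range. Its log2 fold change was 1.01 (limma adjusted p = 0.43), and it too was called with those weights (1.05, limma adjusted p = 0.0456).

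How many members passed depended on how the libraries were weighted. With array quality weights, limma gave JM03 replicates 1, 2 and 3 weights of 6.46, 1.69 and 1.63. Ctrl replicates 1, 2 and 3 had weights of 0.846, 2.19 and 0.0304. Among the controls the largest weight thus went to Ctrl replicate 2, the lowest library for 60.6% of tested members and 9.17% of all tested genes. Its part in the calls of this fit was not tested. In that fit 17.1% of all tested genes were called (2202), with 6.62% called higher in JM03, and 10 members were called, all higher (30.3%). They were *gst-5*, *gst-7*, *gst-20*, *gst-21*, *gst-33*, *gst-35*, *gst-36*, *gst-39*, *gst-42* and *gstk-1*. The largest among them was *gst-5*, with a log2 fold change of 2.76 (limma adjusted p = 0.00154). Simply leaving Ctrl replicate 3 out called no member (limma), while 10 members had an unadjusted p below 0.05 with a positive log2 fold change, beside 8.41% of all tested genes. Those 10 include *gst-14* and *gst-21*, which in that reading met the filter through the JM03 libraries alone.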

How the data were processed

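The authors used fastp, HISAT and RSEM and build WBcel235, per the submitters' processing notes, which do not state versions, settings or strand. They deposited TPM per gene and library, a unit read from the column sums of 997815.65 to 998883.75. Libraries were grouped by the treatment named in their titles, and the labels give no batch. No 2 columns were identical. Gene coordinates and transcript lengths came from Ensembl release 115 for WBcel235, matched by gene ID for all 48 members. log2(TPM + 1) was fitted by limma 3.58.1 in R 4.3.3 (trended, robust prior) for 12912 genes (1 TPM or more in 3 or more libraries), without pairing, with Benjamini-Hochberg adjustment over all of them. The step was also run on simulated data with independent normal noise, which held no outlying library and no length trend. That run cannot tell how the fit handles a library such as Ctrl replicate 3. Genes were named by rule: the smallest p, highest TPM and lowest fold change, the kappa and omega genes, and genes of known role. *gst-25* was added later. The members, lists and tests were chosen with earlier results of these data known. Alternatives were quantile normalization, no filter, a 5 TPM filter, the replicate number as a block, a pseudocount of 0.1, a prior that is not robust, removal of each library's trend on transcript length (lowess), array quality weights, and each library left out. Figures used matplotlib 3.10.9.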

Additional observations from a re-analysis of the deposited data

How the results depend on the processing

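No member was called by limma under 13 of the 14 alternatives, and 10 were with array quality weights, which called 2202 genes, against 17 in the fit reported above. Leaving out each library in turn gave 5 to 17 called genes. The replicate number as a block gave 0, with 0 members called, so it changed no call of a member, and the member of smallest adjusted p then had 0.34. Same-numbered libraries did not deviate together (correlations of -0.0203, 0.0795 and -0.146), and of the 6 libraries only Ctrl replicate 2 correlated best with its own number. A filter at 5 TPM left 18 members, 16 of them positive. Of the 33 members, 25 kept the sign of their log2 fold change throughout. With quantile normalization the sign turned for *gst-10* (-0.019), *gst-12* (-0.051), *gst-24* (-0.17), *gst-30* (-0.18), *gst-38* (-0.057) and *gsto-2* (-0.15), and with the length trend removed for *gst-24* (-0.029), *gst-30* (-0.087) and *gsto-2* (-0.11). With array quality weights it turned for *gst-30* (-0.31), *gsto-1* (0.32) and *gsto-2* (-0.20), and with a pseudocount of 0.1 for *gsto-1* (0.039). Leaving out each library in turn gave ranges of -0.13 to 0.60 for *gst-10*, -0.002 to 0.38 for *gst-12*, -0.08 to 0.27 for *gst-24*, -0.14 to 0.22 for *gst-30*, -0.20 to 0.48 for *gst-38*, -0.18 to 0.021 for *gst-43*, -0.37 to 0.22 for *gsto-1* and -0.074 to 0.20 for *gsto-2*. The cause of these turns was not tested. TPM gives no depth, so the counting error of members under a few TPM is unknown.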
